A study of Saccharomyces cerevisiae with 4 samples.

Results

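The genes examined here encode the cohesin ring (SMC1, SMC3, MCD1 and IRR1), its loader (SCC2 and SCC4), the regulators PDS5 and ECO1, and the pair that opens the ring at anaphase, securin (PDS1) and separase (ESP1). They were found by gene symbol from a list of names and are 10 of the 5449 Saccharomyces cerevisiae genes tested. The list was chosen with earlier results of these data known, so it is not an unselected sample of genes. The cultures were wild type and dis3E729K, a missense allele of DIS3, the gene for the catalytic ribonuclease of the RNA exosome, with 2 biological replicates of each. Both genotypes were labelled as BY4741, a laboratory strain of mating type a, both carried URA3 as a marker next to DIS3, and both were grown at 30 °C, a temperature permissive for the mutant, in selective drop-out medium to mid-log phase. Total RNA was hybridised to 1 Affymetrix array per culture, 4 arrays in all, and the values are RMA log2 intensities. All 10 genes were measured by a single probe set each, and 0 of the 10 identifiers carry a suffix that marks cross-hybridisation.

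Cohesin holds the sister copies of each chromosome together from S phase to anaphase. The SMC ATPases Smc1 and Smc3 form a ring closed by the kleisin Mcd1 (also called Scc1), to which Irr1 (Scc3) binds. Scc2 and Scc4 load the ring onto chromatin in G1, and Eco1 acetylates Smc3 during replication so that the ring stays closed, with Pds5 bound to it. At anaphase the anaphase-promoting complex marks the securin Pds1 for destruction, and the freed separase Esp1 cleaves Mcd1. Several cohesin genes, MCD1 among them, are known in budding yeast to be transcribed periodically with a peak near the G1/S transition.

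Several features of the arrays bear on all the values. The 7 genes expressed in a cells had median log2 levels of 11.06 in wild type and 11.36 in dis3E729K on the replicate 1 arrays, and of 6.64 and 5.61 on the replicate 2 arrays. The 4 genes expressed in alpha cells were at medians of 6.77 and 6.38 on the replicate 1 arrays and 13.15 and 12.17 on the replicate 2 arrays. Both replicate 2 arrays read as alpha cells, against the labelled background, and mating type was split evenly over the genotypes. The log2 of the summed intensity of the a-cell list was 14.32 and 14.55 on the replicate 1 arrays and 9.61 and 9.45 on the replicate 2 arrays. That of 7 meiotic genes lay between 9.68 and 9.79 on every array. Among the 7, SPO11 (log2 change 1.09) was called higher in dis3E729K and HOP1 (-1.03) lower, at a limma adjusted p under 0.05. Over all genes 7.71% were called higher and 8.15% lower. DIS3 itself was at log2 levels of 11.65 and 11.82 in wild type and 11.49 and 11.12 in dis3E729K, which does not check the allele. Of the control probe sets for ribosomal RNA, 17 of 17 read higher in each mutant culture than in either wild-type culture, by a median of 0.42 log2 units. The 5' to 3' signal difference of the yeast control genes was also above both wild-type arrays in each mutant culture for 6 of 8 genes. MET17, a gene that BY4741 lacks, was at a log2 level of 9.55 on wild-type replicate 2 and at 3.22 to 3.47 elsewhere. The part of these features in the results below was not tested.

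The comparison of dis3E729K with wild type addresses how transcript levels differed between the genotypes, whose arrays also differed in the control signals above. Transcripts of the cohesin ring and of 3 of its 6 partners were less abundant in the mutant: 7 of the 10 genes fell in limma's test at a Benjamini-Hochberg adjusted p under 0.05, and 0 rose. Over all genes tested, 8.15% were called lower and 7.71% higher. All 4 ring subunits fell, as did the loader subunit SCC2, the regulator PDS5 and the separase gene ESP1. SCC4, ECO1 and PDS1 did not pass. The median log2 change over the 10 genes was -0.99, with -0.96 within the replicate 1 pair and -1.12 within the replicate 2 pair. Over all genes the median was -0.07. Both mutant arrays lay below both wild-type arrays for all 10 genes, which was also so for 41.8% of all genes. In these bulk cultures, fewer cells in the phase that expresses a gene and less of its RNA per cell cannot be told apart.

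**Figure D1:**
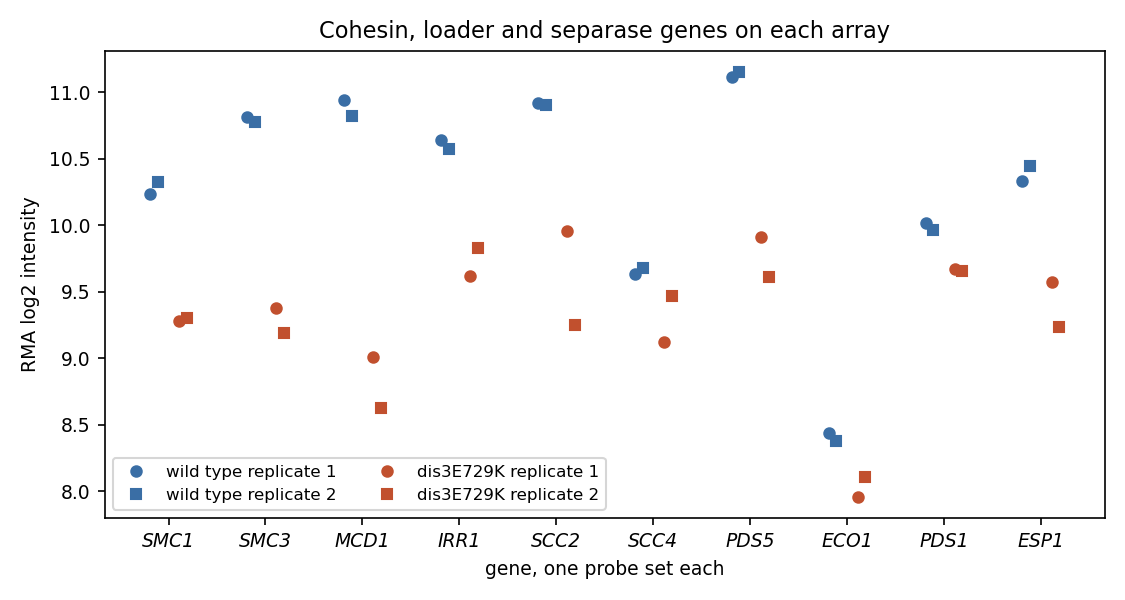
RMA log2 intensity (vertical axis) of the 10 genes, 1 point per array, with wild type in blue, dis3E729K in red, circles for replicate 1 and squares for replicate 2. Both red points lie below both blue points for all 10 genes, with the widest gap for MCD1 and narrow gaps for ECO1, SCC4 and PDS1; heights of different genes come from different probe sets and are not comparable.

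MCD1 (YDL003W), the kleisin that separase cleaves, had the largest fall of the 10 genes. Its log2 level was 10.94 and 10.82 on the wild-type arrays and 9.01 and 8.62 on the mutant arrays. The lower of the mutant arrays was replicate 2, and the groups were separated by far more than either differed within itself. The log2 change was -2.07 ± 0.18 (SE, n = 2 each), 4.19-fold lower, with a 95% interval from -2.56 to -1.57 (limma, adjusted p = 0.0335). Of all genes tested, 0.514% had a lower change. It was -1.94 within the replicate 1 pair and -2.20 within the replicate 2 pair.

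SMC3 (YJL074C), the arm of the ring that Eco1 acetylates, was at log2 levels of 10.82 and 10.78 in wild type and 9.38 and 9.19 in dis3E729K. Neither genotype's arrays differed by more than a small part of the gap between genotypes. The log2 change was -1.51 ± 0.13 (SE), 2.86-fold lower (limma, adjusted p = 0.0335). SMC1 (YFL008W), the partner arm, was at 10.24 and 10.32 in wild type and 9.28 and 9.30 in the mutant, with close agreement of the mutant arrays. Its log2 change was -0.99 ± 0.12, 1.99-fold lower (limma, adjusted p = 0.0337). The change of SMC3 was lower than that of SMC1 by 0.48 log2 units between the replicate 1 arrays and by 0.57 between the replicate 2 arrays. For MCD1 the same difference from SMC1 was 0.98 and 1.17. The 95% intervals of MCD1 and SMC1 (-1.32 to -0.67 for the latter) do not overlap, and the difference between genes was not tested.

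IRR1 (YIL026C), which binds the kleisin and DNA, had the smallest fall in the ring. Its log2 level was 10.64 and 10.57 in wild type and 9.62 and 9.83 in the mutant, where replicate 2 was the higher array. The log2 change was -0.88 ± 0.14 (SE), 1.84-fold lower (limma, adjusted p = 0.0371). The order of change in the ring was MCD1, SMC3, SMC1 and IRR1 between the replicate 2 arrays, and MCD1, SMC3, IRR1 and SMC1 between the replicate 1 arrays.

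**Figure D2:**
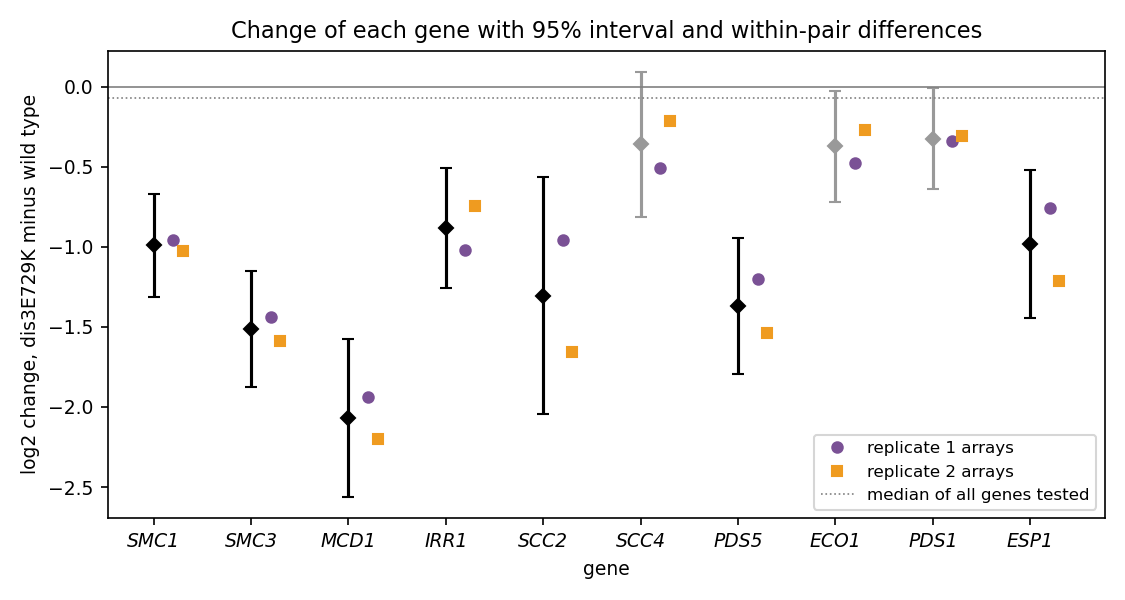
Log2 change of each gene, dis3E729K minus wild type (vertical axis), as a diamond with its 95% interval from the limma fit, black where the adjusted p was under 0.05 and grey otherwise, beside the differences within the replicate 1 arrays (circles) and the replicate 2 arrays (squares). The 10 estimates run from -2.07 for MCD1 to -0.32 for PDS1, every within-pair difference is below zero, and the interval of SCC2 is the widest.

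Of the loader subunits 1 passed the test. SCC2 (YDR180W), which stimulates the ring's ATPase, was at log2 levels of 10.91 and 10.90 in wild type and 9.96 and 9.25 in dis3E729K. The mutant arrays differed from each other by 0.71, the largest gap within a genotype among the 10 genes. The log2 change was -1.30 ± 0.27 (SE), 2.47-fold lower, and passed narrowly (limma, adjusted p = 0.0489). SCC4 (YER147C), the subunit that directs Scc2 to chromatin, was at 9.63 and 9.68 in wild type and 9.12 and 9.47 in the mutant. The groups did not overlap, but replicate 2 of the mutant came near to wild type. Its log2 difference was -0.36 ± 0.17, with an interval from -0.81 to 0.09 (limma, adjusted p = 0.180), which overlaps that of SCC2 (-2.04 to -0.57). In limma's test the call of SCC2 was lost with the replicate block (adjusted p = 0.0569) and with quantile normalization over the tested genes (adjusted p = 0.0522).

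Of the regulators that act on the loaded ring, PDS5 passed and ECO1 did not. PDS5 (YMR076C), which both maintains cohesion and helps to release the ring, was at log2 levels of 11.11 and 11.15 in wild type and 9.91 and 9.61 in the mutant. The gap between genotypes was several times the gap within either. The log2 change was -1.37 ± 0.16 (SE), 2.59-fold lower (limma, adjusted p = 0.0336). ECO1 (YFR027W), the acetyltransferase of Smc3, was at 8.44 and 8.38 in wild type and 7.96 and 8.11 in the mutant. The difference of -0.37 ± 0.13 did not pass (limma, adjusted p = 0.108), with an interval from -0.72 to -0.03.

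The separase gene passed and the securin gene did not. ESP1 (YGR098C), the protease that cleaves Mcd1, was at log2 levels of 10.33 and 10.45 in wild type and 9.58 and 9.23 in the mutant. Its log2 change was -0.99 ± 0.17 (SE), 1.98-fold lower (limma, adjusted p = 0.0412), and the fall was larger between the replicate 2 arrays (-1.21) than between the replicate 1 arrays (-0.76). PDS1 (YDR113C), its inhibitor and chaperone, was at 10.01 and 9.96 in wild type and 9.67 and 9.65 in the mutant. The groups did not overlap and the arrays within each genotype lay close together, but the difference of -0.32 ± 0.12 did not pass (limma, adjusted p = 0.118). The intervals of the securin difference (-0.64 to -0.01) and the separase change (-1.45 to -0.52) overlap.

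**Figure D3:**
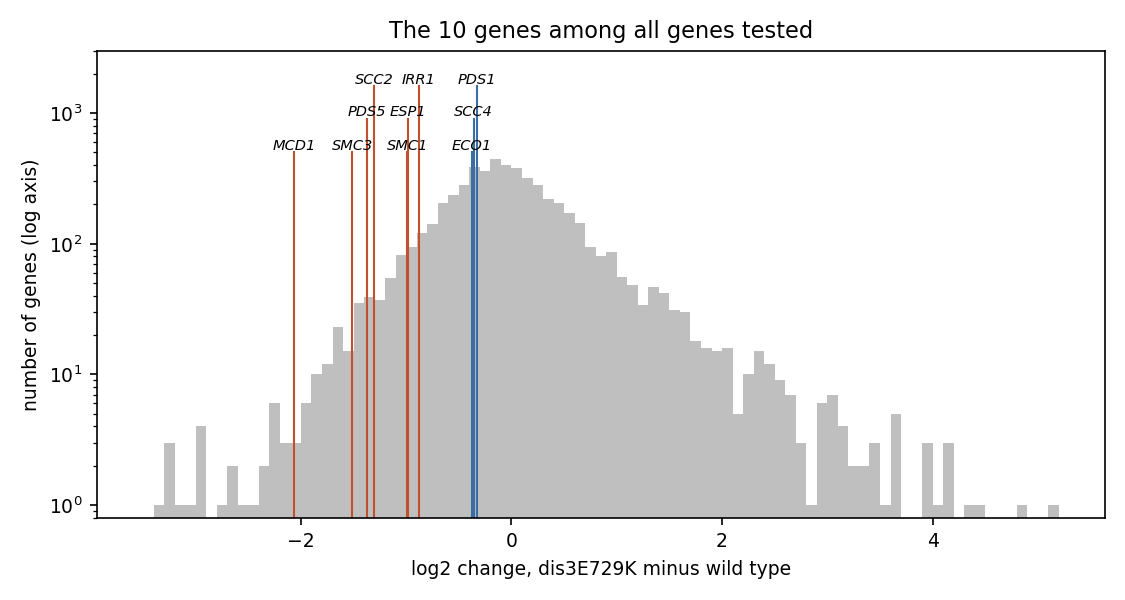
Number of genes (vertical log axis) by log2 change, dis3E729K minus wild type (horizontal axis, bins of 0.1), for the 5449 genes tested, with lines at the 10 genes, red where the adjusted p was under 0.05 and blue otherwise. MCD1 lies in the left tail with 0.514% of genes below it, while SCC4, ECO1 and PDS1 lie within the bulk, with 29.1%, 27.9% and 31.3% of genes below them.

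The sizes fell into a wide range within this short list. Of the 10 genes, 4 (MCD1, SMC3, PDS5 and SCC2) had a log2 change of -1 or lower, as had 6.29% of all genes. ESP1, SMC1 and IRR1 had 6.70%, 6.59% and 8.41% of all genes below them. Wild-type replicates differed by at most 0.12 log2 units for any of the 10 genes, and mutant replicates by at most 0.71. Relative to replicate 1, replicate 2 of the mutant was lower for 6 genes and higher for 4, and the fall was larger between the replicate 2 arrays for 6 genes.

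The calls rested on few arrays. With the replicate number as a block, which also groups the arrays by mating type, 3 of the 10 genes fell in limma's test, MCD1 (adjusted p = 0.0280), SMC3 (adjusted p = 0.0377) and PDS5 (adjusted p = 0.0445), where 2.64% of all genes were called lower. The other 4 calls had adjusted p values between 0.0561 and 0.0664 with the block. Without wild-type replicate 1 only MCD1 and SMC3 passed, and without dis3E729K replicate 1 IRR1 alone of the 7 lost its call. Without wild-type replicate 2, and without dis3E729K replicate 2, 0 of the 10 genes passed limma's test, with 7 and 9 lower where the p was taken unadjusted under 0.05. In the same fits 2 and 0 of the 5449 genes were called lower, and 653 and 868 were lower by unadjusted p under 0.05, counts that also stand beside the counts for other lists below. Without wild-type replicate 1 and without dis3E729K replicate 1, 1.56% and 6.44% of all genes were called lower. With any 1 array left out, the median log2 difference of the 10 genes ran from -1.07 to -0.94. The 10 signs could not turn there, since both mutant arrays lay below both wild-type arrays for every gene.

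The pattern of MCD1 over the 4 arrays was nearest, by Euclidean distance between centred log2 values, to those of SSF1 (distance 0.170), GFD2 (0.258) and IFH1 (0.260). SSF1 encodes a factor of large ribosomal subunit assembly and IFH1 a coactivator of ribosomal protein genes. SSF1 was at log2 levels of 10.32, 10.36, 8.53 and 8.23 in the order wild type replicates 1 and 2 and dis3E729K replicates 1 and 2. Their log2 changes were -1.96 for SSF1, -2.21 for GFD2 and -1.95 for IFH1. Of the other cohesin genes, SMC3 came nearest to MCD1 and ranked 54 among all genes by this distance. With 4 arrays, such likeness mostly restates the size of the change.

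Genes next to the 10 on the chromosomes were taken from gene order in the RefSeq annotation of assembly R64. Whether they were called more often than genes in general was not tested. Of 20 flanking genes 15 were measured, 2 fell and 0 rose in limma's test, beside 8.15% of all genes called lower. Their median log2 change was -0.24, beside -0.07 over all genes. For 10 of the 15 both mutant arrays lay below both wild-type arrays, beside 41.8% of all genes. The falls were those of JEM1 beside SMC3 (-1.45) and NVJ3 beside SCC2 (-1.41). The genes flanking MCD1, ATP16 and NHP10, had log2 differences of -0.21 and 0.43, and neither passed.

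Factors that build cohesion at the replication fork were lower as well. Of 10 genes for the establishment and release of cohesion, 7 fell and 0 rose in limma's test, with a median log2 change of -0.87. The share of all genes called lower was 8.15%, and 2.64% with the replicate block. CTF18 (-1.52 ± 0.18, SE) and CTF8 (-0.86 ± 0.14), subunits of an alternative loader of the replication clamp, fell, while DCC1 of the same complex differed by 0.07 ± 0.12. All 3 genes of the fork protection complex fell, TOF1 by 1.47, MRC1 by 1.20 and CSM3 by 0.90. CHL1, a helicase, fell by 0.89 and CTF4, which ties polymerase alpha to the helicase, by 0.63. The genes that counter Eco1 did not pass: RAD61, the releasing factor Wapl, differed by 0.02 ± 0.12, and HOS1, the deacetylase of Smc3, by -0.46 ± 0.14. With the replicate block 2 of the 10 fell, CTF18 and TOF1. Leaving out any 1 array, so that 1 genotype rests on a lone array, also lost some or all of the 7 calls.

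Condensin, which compacts chromosomes, and the Smc5/6 complex, which acts in repair, are built like cohesin, and some of their genes fell. Among all genes tested 8.15% were called lower, and 2.64% with the replicate block. In condensin 3 of 5 genes fell, YCG1 (-1.36), YCS4 (-0.89) and SMC2 (-0.74), with a median of -0.74. In the Smc5/6 complex 4 of 8 fell, SMC5 (-1.19), SMC6 (-1.02), MMS21 (-0.82) and NSE4 (-0.75), with a median of -0.76, and 0 genes of either complex rose. Grouped by protein family after the values were seen, 5 of 6 SMC ATPase genes fell, with log2 changes from -1.51 for SMC3 to -0.59 for SMC4, which did not pass. The family groups include again several of the cohesin genes counted above. Among the kleisins, MCD1 fell by 2.07 and NSE4 by 0.75, and the meiotic kleisin REC8 differed by -0.09 ± 0.16. The condensin kleisin BRN1 differed by -0.20 ± 0.31, with an interval from -1.04 to 0.63 that includes the change of NSE4. Differences between these genes were not tested. REC8, which replaces Mcd1 in meiosis, was at log2 levels of 6.57 and 6.87 in wild type and 6.58 and 6.68 in the mutant, and the groups overlapped. All 5 genes for the large subunits that bind kleisins (IRR1, PDS5, SCC2, YCS4 and YCG1) fell. With the replicate block only YCG1 and SMC5 of these 2 other complexes fell. Both complexes also lost some or all of their calls with any 1 array left out, where 1 genotype rests on a lone array.

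**Figure D4:**
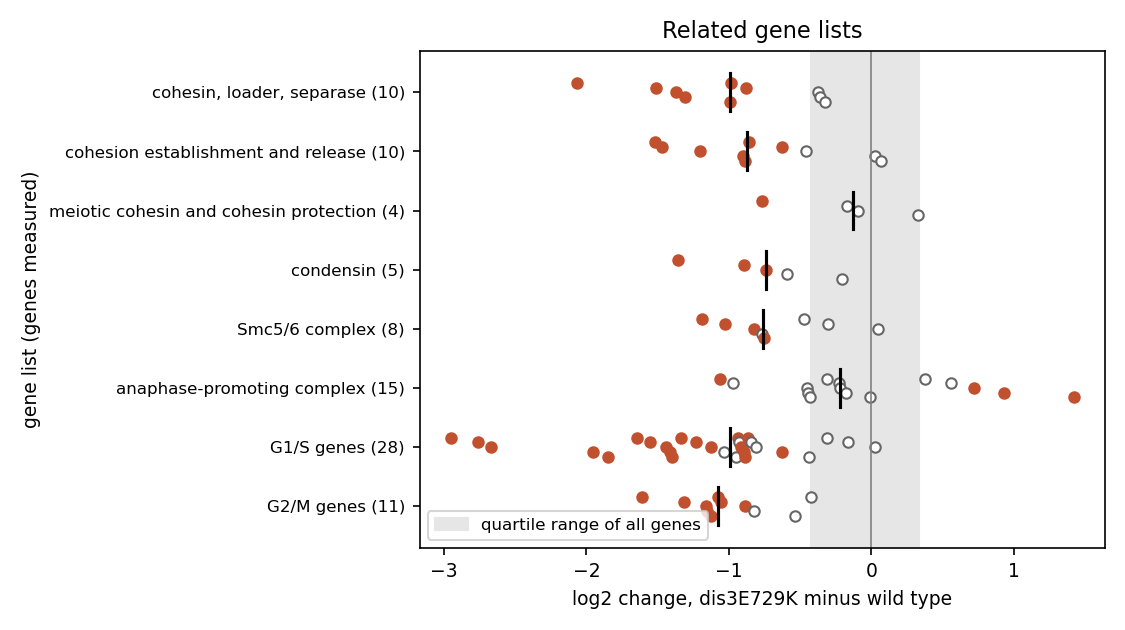
Log2 change, dis3E729K minus wild type (horizontal axis), for each measured gene of 8 lists (rows), filled where the limma adjusted p was under 0.05 and open otherwise; black bars mark list medians and the grey band the range between the quartiles of all genes, -0.42 to 0.34. The medians of the cohesin, G1/S and G2/M lists lie near -1, and the anaphase-promoting complex has calls on both sides of zero.

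In the machinery that triggers cleavage of the ring, the share called lower was near that of all genes, and a few genes rose. Of 15 genes of the anaphase-promoting complex and its activators, 1 fell, APC1 (-1.06 ± 0.12, SE), where 8.15% of all genes were called lower. In limma's test 3 rose, where 7.71% of all genes were called higher: DOC1 (1.42 ± 0.18), which binds substrates, APC9 (0.93 ± 0.16) and MND2 (0.72 ± 0.13). CDC20, the activator that targets securin, differed by -0.22 ± 0.16. SGO1, the shugoshin that guards centromeric cohesin and senses tension, fell by 0.77 ± 0.13, the 1 call among 4 genes for meiotic cohesin and cohesin protection. With the replicate block DOC1 alone of these passed, and APC1 and SGO1 did not (adjusted p = 0.0516 and 0.0771). SGO1 lost its call without any 1 array. Some or all of the calls in the anaphase-promoting complex were also lost with any 1 array left out, where 1 genotype rests on a lone array.

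Other genes of the cell cycle's periodic program were lower too. Of 28 measured G1/S genes 19 fell and 0 rose in limma's test, where 8.15% of all genes were called lower. Their median log2 change was -0.99, the same as over the cohesin genes to 2 decimals. CDC45, of the replicative helicase, fell by 1.56 and CLB5, an S-phase cyclin, by 1.44. Of 11 measured G2/M genes 8 fell and 0 rose, with a median of -1.07; CLB1, a mitotic cyclin, fell by 1.61 and CDC5, the polo kinase that promotes cleavage of Mcd1, by 1.15. With the replicate block 13 G1/S genes and 2 G2/M genes fell, where 2.64% of all genes were called lower. Without wild-type replicate 1 the counts were 7 and 1, and without dis3E729K replicate 1 they were 12 and 6. Without wild-type replicate 2 or dis3E729K replicate 2, 0 of either list fell in limma's test, with 23 to 25 G1/S and 9 to 10 G2/M genes lower by unadjusted p under 0.05.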

How the data were processed

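The authors deposited a log2 intensity for every probe set on each array. The submitters' processing notes name RMA, the Transcriptome Analysis Console and Affymetrix Expression Console, without versions. RMA forces all arrays to 1 distribution of values, so a global change of RNA per cell cannot be seen. The build behind the array annotation is not given in the sources used here. Coordinates are left out, and assembly R64 served for gene names and gene order alone.

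Probe sets were named through the platform annotation and RefSeq identifiers (assembly R64): 5498 of 10928 had 1 S. cerevisiae gene. The probe set with the highest mean over the arrays was kept, leaving 5449 genes. All 10 genes lay above the background, the 95th percentile of probe sets of another yeast (4.06). Groups came from sample titles. The genotypes were tested by limma (version 3.58.1, R 4.3.3) with lmFit and eBayes, two-sided, with Benjamini-Hochberg adjustment over all genes and a threshold of 0.05. Changes are dis3E729K minus wild type and carry limma's moderated SE. With 2 arrays per group an exact permutation test cannot go below p = 0.333. The p-values rest on the spread between these cultures, with 2 residual degrees of freedom. A variance shared over all genes adds 2.18 more. Within each genotype the spread also holds the mating type difference between replicates 1 and 2. Plots were drawn with matplotlib 3.10.9 in Python 3.11.15.

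The 10 genes and the lists were chosen with earlier results of these data known. Named were all 10, every gene past the threshold in 5 related lists, the 2 of the G1/S and G2/M lists with the largest moderated statistic, and the 3 genes nearest MCD1; other genes, such as RAD61, HOS1, DCC1, BRN1, REC8, SMC4, CDC20 and the flanking genes, were picked with their values in view. Promoter motifs were not analysed here. Alternatives were the replicate block, a trend or robust fit, median centring, quantile normalization, dim genes left out, all probe sets, averaged probe sets and each array left out. Same-numbered arrays deviated together only weakly over all genes (r = 0.08) but shared mating type genes.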

Additional observations from a re-analysis of the deposited data

How the results depend on the processing

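The number of arrays, 4, limits every call. The log2 changes of the 10 genes kept their direction in every alternative, but only median centring and quantile normalization could have turned it. The other fits that kept all arrays left these changes as they were. With 1 array left out, the signs were fixed because both mutant arrays lay below both wild-type arrays for all 10. Apart from the replicate block, 7 alternatives left out no array. In them 195 of 196 values kept their call or stayed within 1.5 times of their count. With quantile normalization over the tested genes SCC2 (-1.28, adjusted p = 0.0522) lost its call in limma's test. Part of this tally could hardly move. It includes list counts that were already 0, and averaging probe sets could not change the values of the 10 genes. The replicate block cut the calls over all genes to 199 higher and 144 lower, those among the 10 cohesin genes to 3, the cohesion establishment list to 2, condensin to 1, Smc5/6 to 1, G2/M to 2, the anaphase-promoting complex to 1 higher and 0 lower, and meiotic cohesin and protection to 0. With the block the log2 changes of SMC1 (-0.99), IRR1 (-0.88), SCC2 (-1.30) and ESP1 (-0.99) no longer passed. With 1 array left out, where the lone array is assumed to vary like the other genotype, counts ran from 0 to 316 higher and 0 to 351 lower over all genes, and lower from 0 to 6 for the cohesin genes, 0 to 5 for cohesion establishment, 0 to 2 for condensin, 0 to 2 for Smc5/6, 0 to 12 for G1/S, 0 to 6 for G2/M, 0 to 1 for the anaphase-promoting complex (0 to 1 higher) and 0 to 0 for meiotic cohesin and protection. Log2 changes then ran from -2.26 to -1.87 for MCD1, -1.61 to -1.42 for SMC3, -1.03 to -0.95 for SMC1, -0.99 to -0.78 for IRR1, -1.66 to -0.95 for SCC2, -1.52 to -1.22 for PDS5, -1.16 to -0.81 for ESP1, -0.53 to -0.19 for SCC4, -0.45 to -0.30 for ECO1 and -0.35 to -0.30 for PDS1. Why calls were lost in these fits, which have fewer residual degrees of freedom and, with 1 array left out, fewer arrays, was not tested.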
